A study of Mus musculus with 5 samples.

Results

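The 10 genes described here are Foxp3, its neighbour on the X chromosome Ccdc22, and 8 further forkhead genes, Foxp1, Foxp4, Foxo1, Foxo3, Foxo4, Foxj2, Foxk1 and Foxn3. They were taken by name from a table of read counts per gene. All 10 were found among 24417 genes with a symbol, and all 10 passed the filter on low counts, which left 14164 genes. The RNA came from cells of mouse colonic lamina propria, the tissue that underlies the epithelium of the large bowel. Every library came from mice of 1 strain label, which names Foxp3DTR-GFP and, after a slash, a reporter-null allele built from loxp, Thy1.1, STOP, loxp and GFP, so both groups share this genotype. The Treg group held 2 libraries of Foxp3-DTR-GFP+ Treg cells, marked by a fusion of the diphtheria toxin receptor and green fluorescent protein, and 3 libraries of Thy1.1+ cells made up the reporter-null group, shortened below to null cells. The labels give no treatment, age or sex, and they do not say whether libraries came from separate animals, so p-values reflect library-to-library spread alone, and that spread may be technical. The description of reporter-null replicate 1 carries both 1 and 4 as numbers.

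Forkhead proteins are transcription factors that share a winged-helix DNA-binding domain, the forkhead box. FOXP3 defines regulatory T (Treg) cells, which hold down immune responses, and without it mice develop lethal autoimmunity. FOXP1 and FOXP4 belong to the same subfamily and form dimers through a leucine zipper, and FOXP1 also keeps naive T cells quiescent. The FOXO proteins enter the nucleus when PI3K and AKT signalling is low, where they drive genes of homing, survival and quiescence, and they contribute to Foxp3 induction. CCDC22 is no transcription factor: it is a subunit of the CCC complex, which returns membrane proteins from endosomes to the cell surface.

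The family likeness is shown by the coding stretch of the recognition helix, the part of the forkhead box that sits in the major groove of DNA. Each line gives, for 8 of the 9 forkhead genes, 45 coding bases from GENCODE M21 transcripts (GRCm38), with the 18 bases that code for the core of the helix in capitals.
Foxp3: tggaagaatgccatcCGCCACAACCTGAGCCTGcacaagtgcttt
Foxp4: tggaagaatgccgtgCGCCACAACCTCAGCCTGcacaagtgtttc
Foxo1: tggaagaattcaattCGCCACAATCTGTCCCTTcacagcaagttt
Foxo3: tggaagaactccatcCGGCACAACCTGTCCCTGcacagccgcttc
Foxo4: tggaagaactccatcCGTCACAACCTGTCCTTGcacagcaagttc
Foxj2: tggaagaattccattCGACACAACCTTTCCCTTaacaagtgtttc
Foxk1: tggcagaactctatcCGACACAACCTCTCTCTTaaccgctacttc
Foxn3: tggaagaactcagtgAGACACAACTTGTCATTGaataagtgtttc
Foxp4 shared 40 of the 45 bases with Foxp3 (88.9%), Foxo3 36 (80%) and Foxj2 35 (77.8%). Foxp1, whose stretch is not printed here, also shared 35 (77.8%), so it was no closer to Foxp3 than Foxo3 was. Foxo1 and Foxo4 shared 33 (73.3%), and Foxk1 and Foxn3 29 (64.4%). Even so, no run of 50 bases in any transcript of the 9 forkhead genes also occurred in a transcript of another forkhead gene of the count table, on either strand, so an exact read of that length belongs to 1 of them alone. Reads shared with other overlapping genes are a separate matter, taken up for Foxp3, Ccdc22 and Foxo1.

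Libraries held 17670420 to 22395169 counted reads. Levels are given as CPM (counts scaled to a common library total), with TMM factors to correct for library composition. Log2 fold changes are signed so that a negative value is lower in null cells, and each has its standard error (SE). A gene is called when its adjusted p from edgeR (quasi-likelihood F test, Benjamini-Hochberg over all 14164 genes) is under 0.05. Marker genes of CD4 T cells summed to 5469 and 5503 CPM in Treg and 6156 to 6639 CPM in null libraries. Epithelial markers summed to 306 CPM in Treg replicate 1 and 1349 CPM in reporter-null replicate 2, against 23.1 to 43.6 CPM in the other libraries, and plasma and B cell markers were highest in the same 2 libraries (1436 and 906 CPM, against 394 to 442 CPM). Macrophage, monocyte and dendritic cell markers stood at 16.8 to 83 CPM, CD8 T cell markers at 3.55 to 11.9 CPM, NK cell and ILC markers at 85.1 to 136 CPM and mast cell and granulocyte markers at 0.487 to 1.68 CPM. Stromal and endothelial markers stood at 95.5 to 187 CPM. Il1rl1 alone held 85.3 and 83.2 CPM of the NK cell and ILC sums in Treg, and 104, 41 and 107 CPM in null replicates 1, 2 and 3. Of the plasma and B cell sums, Jchain alone held 1333 and 392 CPM in Treg, and 362, 807 and 416 CPM in null replicates 1, 2 and 3. Some single markers were called. In group means, Cd4 rose from 701 to 1391 CPM in null cells (edgeR adjusted p = 0.00796). Kit, of the NK cell and ILC list, rose from 7.1 to 26.2 CPM (adjusted p = 0.0439). Cd79b, of the B cell list, fell from 19.8 to 7.11 CPM (adjusted p = 0.0046). Outside the gamma-delta list no other marker was called. Of 3 measured gamma-delta T cell markers, 1 was called higher, and their sum was 11.3 and 10.6 CPM in Treg and 389 to 610.2 CPM in null libraries, nearly all of it from 5830411N06Rik. The part of these other transcripts in the results below was not tested.

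Of the 10 genes 3 were called, all lower in reporter-null cells: Foxp3, Ccdc22 and Foxo1. Over all tested genes 8.79% were called, 4.72% lower and 4.07% higher. With edgeR 0 of the 10 were called higher, although 1, Foxp1, was higher at an unadjusted p under 0.05. DESeq2 called that gene as well, and limma-voom called 0 higher. The median log2 fold change was -0.26, beside 0.02 for all tested genes. In 9 of the 10 the libraries of the 2 groups did not overlap in CPM, as was true of 40.8% of all tested genes. Foxo3 was the exception.

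**Figure D1:**
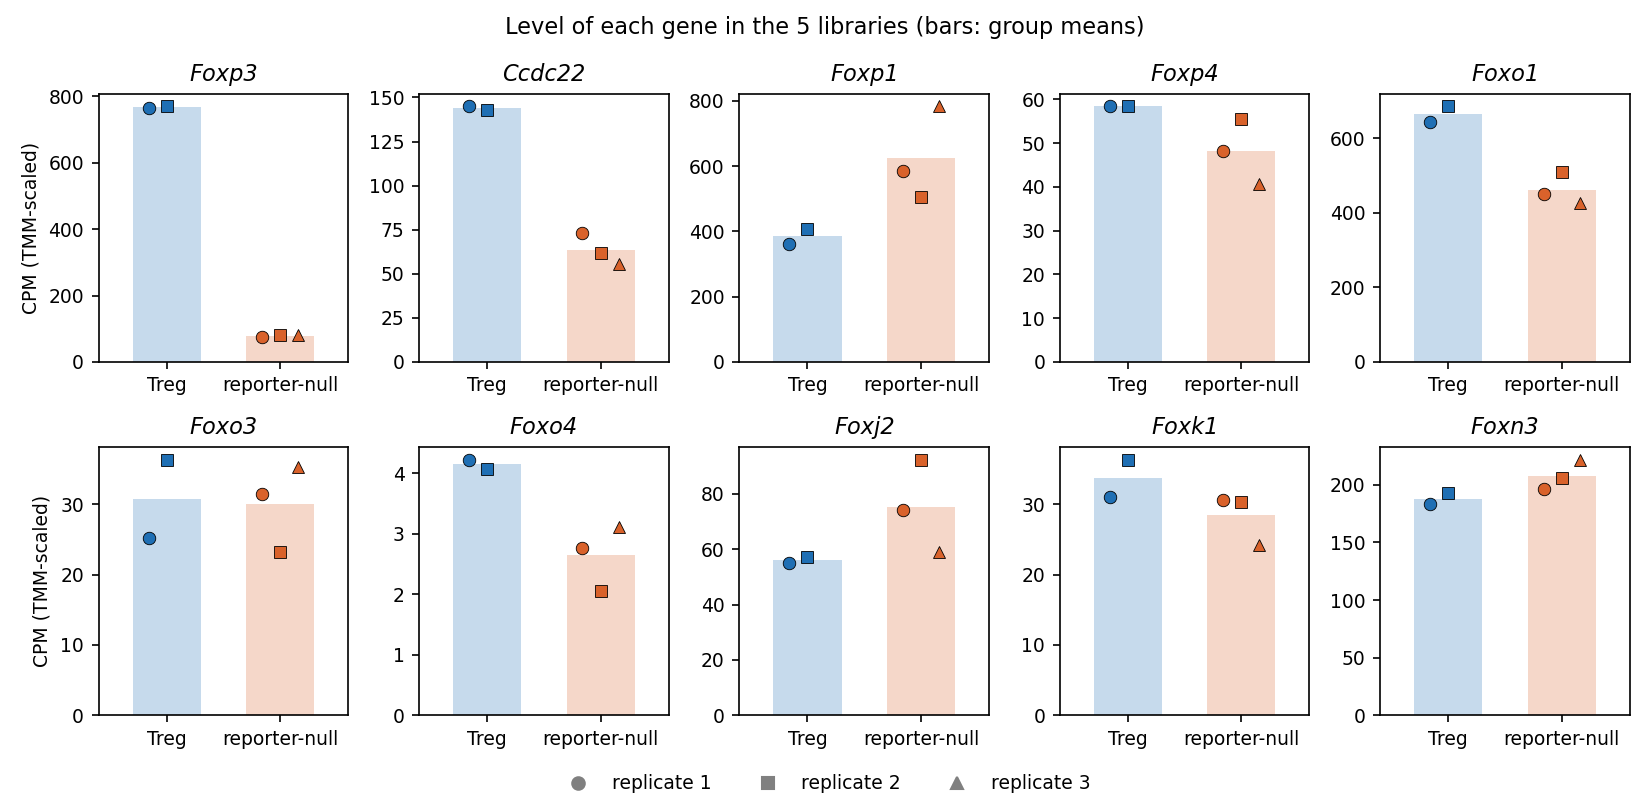
CPM after TMM scaling (y axis, from 0, own scale for each gene) of the 10 genes in 2 Treg and 3 reporter-null libraries. Bars are group means and points are libraries. Foxp3, Ccdc22 and Foxo1 are lower in every reporter-null library than in either Treg library, and Foxo3 overlaps between the groups.

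**Figure D2:**
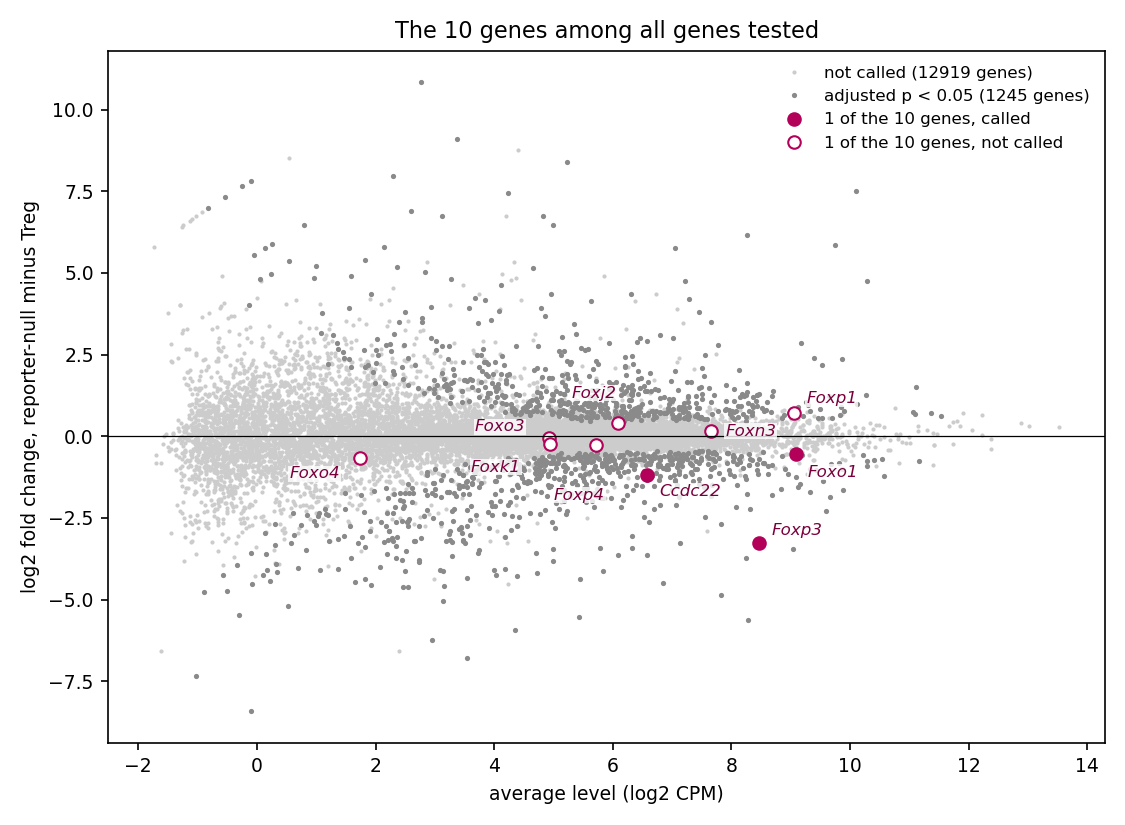
Log2 fold change (reporter-null minus Treg, y axis) against average level (log2 CPM, x axis) for the 14164 tested genes, each a dot, with the 1245 called genes in dark grey and the 10 genes in colour. Foxp3 lies at -3.28, below Ccdc22 at -1.18 and Foxo1 at -0.53, and the open circles, not called, run from Foxo4 at -0.65 to Foxp1 at 0.70.

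To compare levels between genes, CPM was divided by the length of a gene's exons in GENCODE M21. How far these exons match the authors' annotation is not known. Some GENCODE M21 genes, such as Gm36995, have no row in the count table. In Treg cells the order of CPM per kb was Foxp3 (168 ± 0.867, SD, n = 2), Foxo1 (76.7 ± 3.38), Ccdc22 (41.9 ± 0.381), Foxp1 (27.9 ± 2.32), Foxn3 (16.3 ± 0.632), Foxp4 (11.9 ± 0.00363), Foxj2 (10.5 ± 0.31), Foxk1 (4.45 ± 0.502), Foxo3 (4.07 ± 1.04) and Foxo4 (1.19 ± 0.0337). Of neighbours in this order, Foxk1 and Foxo3 overlapped in range and the others did not. In reporter-null cells Foxo1 led at 53.2 ± 4.87 CPM per kb (SD, n = 3), with Foxp1 next at 45.5 ± 10.4, and their ranges overlapped. Foxp3 was the fifth at 17.3 ± 0.669, within the range of Ccdc22 (18.5 ± 2.6) and overlapping Foxn3 (18.1 ± 1.14) and Foxj2 (14 ± 3.15). Thus the transcript with the highest level per length among the 10 in Treg cells stood among the middle ones in reporter-null cells.

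Foxp3 was the most strongly lowered of the 10. It stood at 764 and 770.0 CPM in Treg replicates 1 and 2 (14078 and 16652 reads). In reporter-null replicates 1, 2 and 3 it stood at 75.7, 80.7 and 81.3 CPM (1398, 1681 and 1827 reads). The groups lay far apart and the libraries within each group close together, with SDs of 3.97 CPM in Treg (n = 2) and 3.06 CPM in null cells (n = 3). The log2 fold change was -3.28 (SE 0.107, edgeR adjusted p = 5.45e-05), the fourth smallest p of all tested genes. The level in reporter-null cells was 10.3% of that in Treg cells. A count per symbol does not say which allele or which exons these reads came from, and in bulk RNA fewer cells with a transcript and less transcript per cell cannot be told apart. Thy1 was 18.8 and 21.4 CPM in Treg and 269 to 300.5 CPM in null libraries, so both genes followed the labels. Its count does not separate the Thy1.1 reporter from the cells' own Thy1, and the null cells were labelled Thy1.1+ to begin with.

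The transcripts whose levels over the 5 libraries ran most like Foxp3 were sought among the 9527 genes that reached an average of 3 in log2 CPM. Likeness was the root mean square distance between log2 CPM profiles, each centred on its own mean. The closest was Tnfrsf9, the co-stimulatory receptor 4-1BB, at a distance of 0.087 log2 units. It stood at 1144 and 1165 CPM in Treg and 107, 107 and 106 CPM in null replicates 1, 2 and 3. Capn3, a calcium-dependent protease, came next at 0.091, with 22.2 and 25.2 CPM in Treg and 2.49 to 2.71 CPM in null cells. Trat1, an adaptor of the T cell receptor complex, followed at 0.149, then Swap70, a signalling protein that binds phosphoinositides, at 0.158 and the histone deacetylase Hdac9 at 0.193. All 5 profiles rest on the same 5 libraries in 2 groups, so any gene with a similar group difference and little spread comes close.

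Ccdc22 fell to less than 50% of its Treg level. It stood at 145 and 143 CPM in Treg replicates 1 and 2, and at 73, 61.6 and 55.4 CPM in null replicates 1, 2 and 3. No reporter-null library came near a Treg library, and the reporter-null values were the more spread. The log2 fold change was -1.18 (SE 0.139, edgeR adjusted p = 0.00415), a level of 44.1% of Treg. Without Treg replicate 1, which leaves that group 1 library assumed to vary like the others, its adjusted p was 0.0507 with a log2 fold change of -1.17; over 14 alternatives adjusted p ran from 2.27e-11 to 0.0785.

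Foxp3 and Ccdc22 point towards each other on the X chromosome and share sequence at their 3' ends. In GENCODE M21, 590 exon bases are annotated in both genes on opposite strands, 12.9% of the exon bases of Foxp3 and 17.2% of those of Ccdc22. None of these bases is coding in Foxp3, and 342 are coding in Ccdc22. The kit amplifies both strands and no strand setting is given in the sources used here, so reads from these bases cannot be assigned to 1 of the 2 genes. Were coverage of Foxp3 even and its counted exons those of GENCODE M21, the shared bases would hold 98.9 CPM of Foxp3 reads in Treg. In null cells they would hold 10.2 CPM, a difference of 88.7 CPM. The measured difference of Ccdc22 was 80.3 CPM, 11.7% of the Foxp3 difference of 688 CPM. Ccdc22 reads numbered 0.189 and 0.185 per Foxp3 read in the Treg libraries, and 0.964, 0.764 and 0.682 in the reporter-null libraries. A change of Ccdc22 transcripts and Foxp3 reads counted for Ccdc22 therefore cannot be told apart in this table. Foxp3 also shares 853 exon bases with the long non-coding RNA Flicr, listed in the table as Ppp1r3fos, on the same strand, and 266 with Ppp1r3f on the opposite strand. A further GENCODE M21 gene, Gm36995, has no row in the count table. It shares 2957 exon bases with Ccdc22 on the same strand, 86.3% of the exon bases of Ccdc22, and 373 with Foxp3 on the opposite strand.

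The promoters of Foxp3 and Ccdc22, the 2 genes called lower at this locus, are shown with matches to an NFAT core (GGAAA, either strand) in capitals. The sequences are from RefSeq (GRCm38.p6), 250 bases before to 50 after the start. Foxp3 is the plus strand of chrX:7579426-7579725, 1 of 2 starts listed, and Ccdc22 is the minus strand of chrX:7605371-7605670.
Foxp3: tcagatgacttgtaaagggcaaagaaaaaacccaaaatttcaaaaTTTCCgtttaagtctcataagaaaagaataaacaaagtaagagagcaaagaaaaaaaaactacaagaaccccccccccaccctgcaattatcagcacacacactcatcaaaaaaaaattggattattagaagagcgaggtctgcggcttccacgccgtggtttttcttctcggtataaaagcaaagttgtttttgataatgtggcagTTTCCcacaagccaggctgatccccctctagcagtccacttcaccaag
Ccdc22: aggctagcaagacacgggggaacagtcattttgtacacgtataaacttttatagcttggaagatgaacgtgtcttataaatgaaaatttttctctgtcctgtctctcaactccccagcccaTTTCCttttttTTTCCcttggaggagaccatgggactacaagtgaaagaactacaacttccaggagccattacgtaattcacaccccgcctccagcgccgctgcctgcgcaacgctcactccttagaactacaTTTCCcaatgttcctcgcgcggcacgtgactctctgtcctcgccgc
The Foxp3 window held 2 matches and the Ccdc22 window 3, and 61.3% of 32851 promoter windows held at least 1. A forkhead motif (TGTTTAC, either strand) was in neither window, nor in any window of the 8 genes of the 10 with an entry, and was in 3.65% of all windows. Foxk1 and Foxo4 had no entry.

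Among the genes around this pair none was called lower in the edgeR test. The 10 genes on each side of Foxp3 in RefSeq's gene table (GRCm38.p6) were taken, without Ccdc22, and 11 of them passed the filter. Of these 1 was called higher and 0 lower by edgeR, or 9.09% called beside 8.79% of all tested genes, with a median log2 fold change of 0.14. At an unadjusted p under 0.05, 2 were higher and 1 lower. DESeq2 and limma-voom each called 1 higher and 0 lower. Syp, which encodes the vesicle protein synaptophysin, was 32 and 32.2 CPM in Treg and 77.6, 54.8 and 60.3 CPM in null replicates 1, 2 and 3 (adjusted p = 0.0166). The call ended when Treg replicate 1 (0.143), Treg replicate 2 (0.12) or null replicate 1 (0.0532) was left out, with adjusted p from 1.23e-05 to 0.143 over the alternatives. Ppp1r3fos (Flicr), a non-coding RNA known to lower Foxp3 expression, stood at 15.3 and 14.1 CPM in Treg and 9.1, 11.9 and 7.92 CPM in null cells (-0.61, SE 0.236, adjusted p = 0.183). It passed without reporter-null replicate 2 (-0.80, adjusted p = 0.0457, range 0.0457 to 0.523), and it shares the bases named above with Foxp3. Plp2, a membrane protein, differed by 0.35 (SE 0.127, adjusted p = 0.165), and the autophagy gene Wdr45 by -0.33 (SE 0.157, adjusted p = 0.28).

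**Figure D3:**
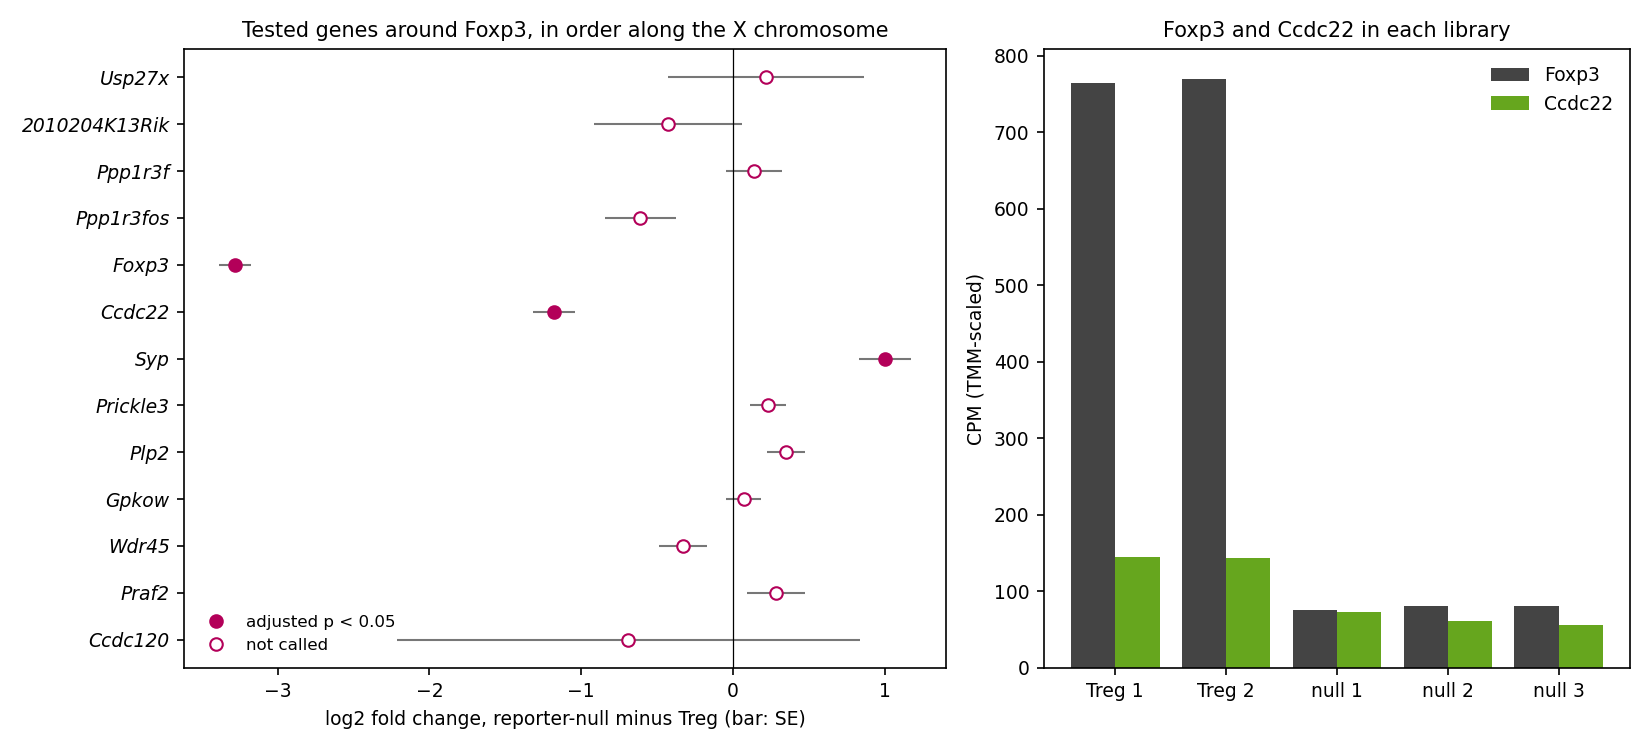
Left, log2 fold change (reporter-null minus Treg, x axis) with SE bars for the tested genes around Foxp3, from top to bottom in their order along the X chromosome; filled points are called. Right, CPM (y axis, from 0) of Foxp3 and Ccdc22 in each library, where Foxp3 is close to Ccdc22 in reporter-null replicate 1 (75.7 and 73 CPM) and above it in replicates 2 and 3.

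The partners of CCDC22 were examined as well. Of 20 tested genes of the CCC complex, of retriever, which recycles cargo with it, and of the WASH complex, which builds actin on endosomes, edgeR called 0. At an unadjusted p under 0.05, 1 was lower and 0 higher. DESeq2 called 1, Commd4, as lower, and limma-voom 0. Their log2 fold changes ran from -0.55 to 0.44 with a median of 0.06. Commd4, a subunit of the CCC complex, was 122 and 119 CPM in Treg and 98.4, 89.8 and 99.2 CPM in null cells (-0.33, SE 0.107, adjusted p = 0.123). Commd8 differed by 0.44 (adjusted p = 0.244) and passed without reporter-null replicate 2 (0.59, adjusted p = 0.018), and with Treg replicate 1 left out too (0.0185, range 0.018 to 0.541). Commd5 differed by -0.55 (adjusted p = 0.261), and E430025E21Rik, which encodes the WASH subunit strumpellin, by 0.30 (adjusted p = 0.312). Ccdc93, the coiled-coil partner of CCDC22, stood at 31.5 and 21.2 CPM in Treg and 21.2, 24.2 and 27.2 CPM in null cells, overlapping between the groups. The profiles most like Ccdc22 among the 9527 genes were those of Ltb, which encodes lymphotoxin beta (distance 0.042), and Klc3, a kinesin light chain (0.054).

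Foxp1 had higher values in every reporter-null library, without passing the test. It stood at 362 and 407 CPM in Treg replicates 1 and 2 and at 586, 506 and 783 CPM in null replicates 1, 2 and 3. Reporter-null replicate 3 was the highest and replicate 2, the library with the most epithelial transcripts, the lowest of its group. The log2 fold change was 0.70 (SE 0.200, edgeR adjusted p = 0.0858). Without reporter-null replicate 2 it was 0.82 with an adjusted p of 0.006, and DESeq2 gave 0.00463, within a range of 0.00463 to 0.417 over 14 alternatives. Foxp4, the other close relative, was 58.4 CPM in both Treg libraries and 48.2, 55.6 and 40.7 CPM in the null libraries. Its values were lower in the reporter-null group without overlap, but close in replicate 2 (-0.28, SE 0.152, adjusted p = 0.348). The remaining gene of the subfamily, Foxp2, was at 0.667 to 2.28 CPM in the 5 libraries and overlapped between groups (-0.91, SE 0.639, adjusted p = 0.474).

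Foxo1, the main FOXO protein of T cells, was modestly lower. It stood at 644 and 685 CPM in Treg and at 450.4, 508 and 425 CPM in null replicates 1, 2 and 3. The lowest Treg library lay above the highest reporter-null library. In GENCODE M21, 674 exon bases of Foxo1 (7.8%) are shared with Gm20402 on the opposite strand. Gm20402 has no row in the count table. The log2 fold change was -0.53 (SE 0.124, edgeR adjusted p = 0.047), a level of 69.4% of Treg. The call lies just under the threshold. It was lost with RLE size factors (0.0541) and when either Treg library was left out (0.209 for replicate 1 and 0.24 for replicate 2). Leaving out null replicate 1 (0.2) or null replicate 3 (0.074) also ended it. Adjusted p ran from 0.000372 to 0.24 over the alternatives, while the log2 fold change stayed between -0.64 and -0.47. The profiles most like it were Prkcb, a protein kinase C (distance 0.019), Obfc1, a subunit of the telomeric CST complex (0.026), and Carmil2, a regulator of actin capping needed for CD28 signals (0.036).

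Foxo3 overlapped between the groups, at 25.2 and 36.4 CPM in Treg and 31.5, 23.2 and 35.4 CPM in null cells. Its lowest values were in Treg replicate 1 and reporter-null replicate 2, the 2 libraries with the most epithelial transcripts (-0.04, SE 0.237, adjusted p = 0.954). The sign turned when Treg replicate 2 (0.25) or reporter-null replicate 2 (0.11) was left out. Foxo4 was scarce, with 78 and 88 reads in Treg and 51, 43 and 70 reads in reporter-null libraries, or 4.23 and 4.07 CPM against 2.76, 2.06 and 3.11 CPM. The groups did not overlap, but the change did not pass the test (-0.65, SE 0.383, adjusted p = 0.389). Foxo6 had 6 reads in all, each in reporter-null replicate 2.

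Among listed genes that FOXO proteins are known to drive or bind, more were called lower than higher. This list, like the other lists, was chosen with earlier results of these data known, so its share of calls is descriptive only. Of 25 on the list, all tested, 15 were lower, 1 was higher and 9 were not called, or 64% called beside 8.79% of all tested genes. Their median log2 fold change was -0.81, beside 0.02 for all tested genes. Klf3, a Kruppel-like repressor, fell from 285 and 259.6 CPM to 109, 109 and 111 CPM (-1.31, SE 0.104, adjusted p = 0.000991). S1pr1, the receptor that lets T cells leave tissue, fell from 207 and 199 CPM to 103, 102 and 84.6 CPM (-1.07, SE 0.127, adjusted p = 0.00416). Bcl6, the regulator of follicular helper T cells, fell from 58.6 and 56.2 CPM to 17.9, 24.2 and 23.9 CPM (-1.38, SE 0.164, adjusted p = 0.00416). Without Treg replicate 1 these calls were lost for S1pr1 (0.0558, range 7.51e-12 to 0.0746) and Bcl6 (0.0536, range 2.25e-10 to 0.0918).

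The homing and quiescence genes of the list did not all move together. The chemokine receptor Ccr7 fell from 1639 and 1225 CPM to 420.2, 466 and 298 CPM (-1.86, adjusted p = 0.00429), and Lef1 from 191 and 171 CPM to 32, 44.4 and 21.6 CPM (-2.47, adjusted p = 0.00726). Tcf7, which encodes TCF1, a close relative of LEF1, rose from 167 and 198 CPM to 331, 314 and 282 CPM (0.76, adjusted p = 0.0176). The Tcf7 call ended when Treg replicate 1 (0.17), Treg replicate 2 (0.0764) or null replicate 1 (0.0902) was left out, with adjusted p from 1.05e-06 to 0.17 over the alternatives. Il7r, the IL-7 receptor chain and a classical FOXO1 target, was 294 and 213 CPM in Treg and 246, 182 and 324 CPM in null cells, with overlap. Klf2, which drives S1pr1, was 1954 and 2967 CPM in Treg and 1601, 865 and 1679.7 CPM in null cells (-0.83, SE 0.333, adjusted p = 0.216). Cdkn1b, the cell cycle inhibitor p27, differed by -0.34 (adjusted p = 0.128). The list had 4 called genes when Treg replicate 1 was left out, 6 for Treg replicate 2 and 9 for null replicate 1. With Treg replicate 1 and reporter-null replicate 2 both left out it was 17.

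**Figure D4:**
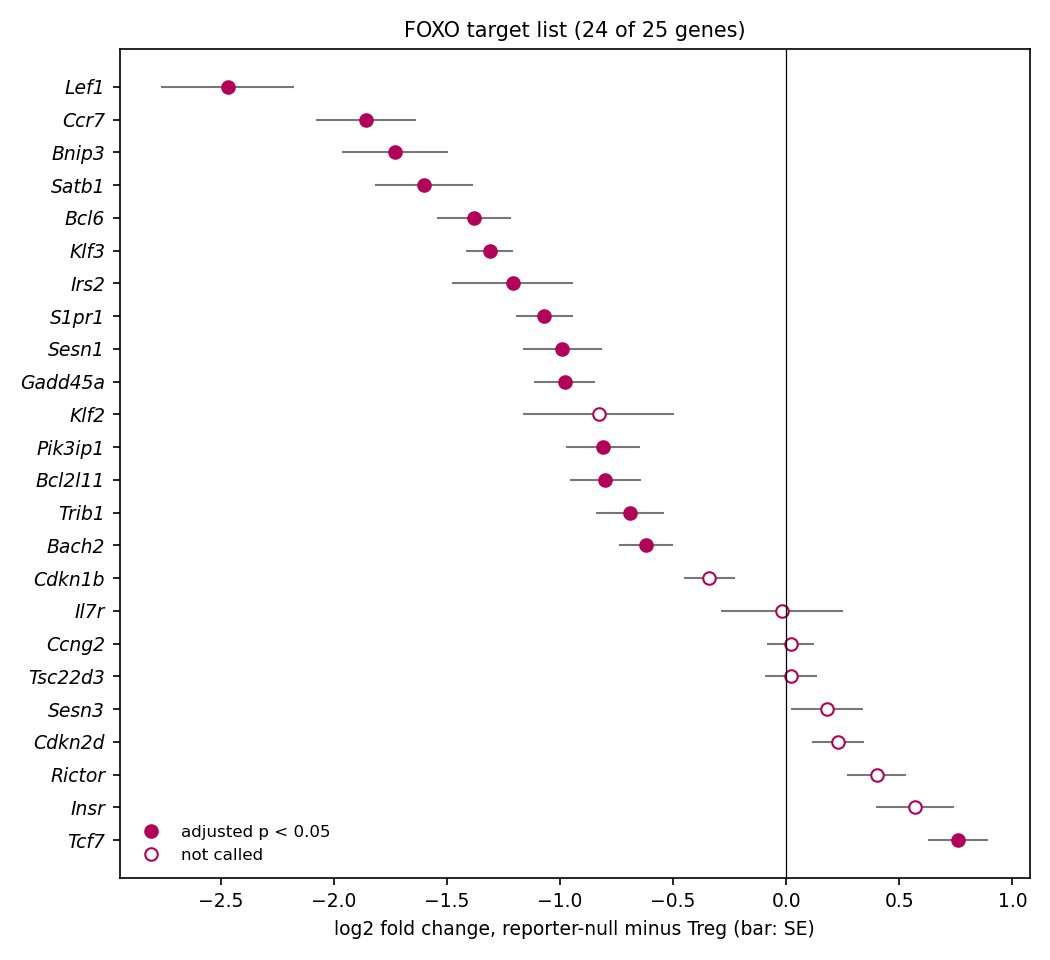
Log2 fold change (reporter-null minus Treg, x axis) with SE bars for 24 of the 25 genes of the FOXO target list; filled points are called in the edgeR test. Called genes run from Lef1 at -2.47 to Bach2 at -0.62 on the lower side, and Tcf7 at 0.76 stands alone on the higher side.

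Of 31 genes that act on FOXO proteins, 2 were higher and 2 lower, or 12.9% called beside 8.79% of all tested genes. Phlpp1, a phosphatase that switches AKT off, fell from 269.6 and 266 CPM to 11.6, 12.7 and 11.1 CPM (-4.50, SE 0.120, adjusted p = 2.61e-05). Pik3r1, a regulatory subunit of PI3K, fell from 154 and 149.6 CPM to 98.4, 109 and 108 CPM (-0.53, adjusted p = 0.0284). Pik3cd, the catalytic subunit of T cells, rose from 244 and 287 CPM to 468, 466 and 416 CPM (0.76, adjusted p = 0.0156), and Usp7, a deubiquitinase of FOXO proteins and FOXP3, rose by 0.59 (adjusted p = 0.0313). Phlpp1 alone of these 4 was called without Treg replicate 1, Treg replicate 2 or reporter-null replicate 1, where the list had 1 called gene each. Without those libraries in turn the adjusted p was 0.159, 0.0718 and 0.0828 for Pik3cd (range 1.03e-07 to 0.159), 0.194, 0.139 and 0.157 for Pik3r1 (1.95e-05 to 0.194), and 0.215, 0.0886 and 0.134 for Usp7 (0.000282 to 0.215). With Treg replicate 1 and reporter-null replicate 2 both left out it was 0.0641 for Pik3r1 and 0.144 for Usp7.

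Foxj2, Foxk1 and Foxn3 are widely expressed forkhead genes outside the P and O subfamilies, and none of the 3 passed the test. Foxj2, a transcriptional activator, was 54.9 and 57.3 CPM in Treg and 74, 92.4 and 58.8 CPM in null cells. Replicate 3 lay just above the Treg libraries and replicate 2 well above (0.42, SE 0.194, adjusted p = 0.266). Foxk1, a repressor of autophagy genes that also promotes glycolysis, was 31.1 and 36.4 CPM in Treg and 30.7, 30.4 and 24.2 CPM in null cells. Treg replicate 1 was hardly above the highest reporter-null library (-0.25, SE 0.167, adjusted p = 0.458). Foxn3, a transcriptional repressor, was 183 and 193 CPM in Treg and 196, 206 and 222 CPM in null cells. This was a small shift with no overlap (0.15, SE 0.111, adjusted p = 0.512).

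The rest of the family was mostly silent or low in these cells. Of 35 further forkhead genes in the table, 15 passed the filter on low counts, and of these edgeR called 1 higher and 0 lower, or 6.67%. At an unadjusted p under 0.05, 3 were higher and 0 lower, DESeq2 called 2 higher and 0 lower, and limma-voom 1 higher and 0 lower. The called gene was Foxf2, known from gut mesenchyme, at 0.923 and 0.185 CPM in Treg and 12.2, 19.8 and 14.8 CPM in null replicates 1, 2 and 3 (4.82, SE 0.709, adjusted p = 0.0132). In Treg this rests on 17 and 4 reads. The log2 fold change of Foxf2 ran from 4.07 to 6.35 over the alternatives. Its call was lost in 1 of the 14, the block by replicate number of the titles (edgeR adjusted p = 0.164). Stromal and endothelial markers summed to 123 and 112 CPM in Treg and 108, 187 and 95.5 CPM in null cells. Pecam1 held 81.5 and 101 CPM of these sums in Treg and 95.4, 93.1 and 86.2 CPM in null cells. Dcn, which encodes the fibroblast product decorin, was at 0.0542, 27.1 and 0.0445 CPM in reporter-null replicates 1, 2 and 3. In the same libraries Col1a1 was at 8.45, 12.3 and 6.45 CPM and Col3a1 at 2.38, 39 and 0.934 CPM. The part of stromal transcripts in the Foxf2 values was not tested.

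Foxk2, the closest relative of Foxk1, was 19.5 and 30 CPM in Treg and 40.2, 40.7 and 36.8 CPM in null cells (0.66, SE 0.202, adjusted p = 0.102), and DESeq2 alone of the 14 alternatives called it (0.0329, range 0.0329 to 0.377). Foxj3 was 30.9 and 38.7 CPM in Treg and 47.2, 42 and 48.6 CPM in null cells (0.40, SE 0.146, adjusted p = 0.164). Foxd2 stood at 22.1 CPM in reporter-null replicate 2 and at 6.57 to 8.5 CPM elsewhere (0.97, SE 0.492, adjusted p = 0.321). Foxa1 and Foxa3, regulators of gut epithelium, followed the epithelial markers: Foxa1 was 5.65 CPM in Treg replicate 1 and 17.5 CPM in reporter-null replicate 2, and 0.324 to 1.25 CPM in the other libraries. Foxa3 was 2.55 and 9.22 CPM in those 2 libraries and 0 to 0.133 CPM in the others.

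**Figure D5:**
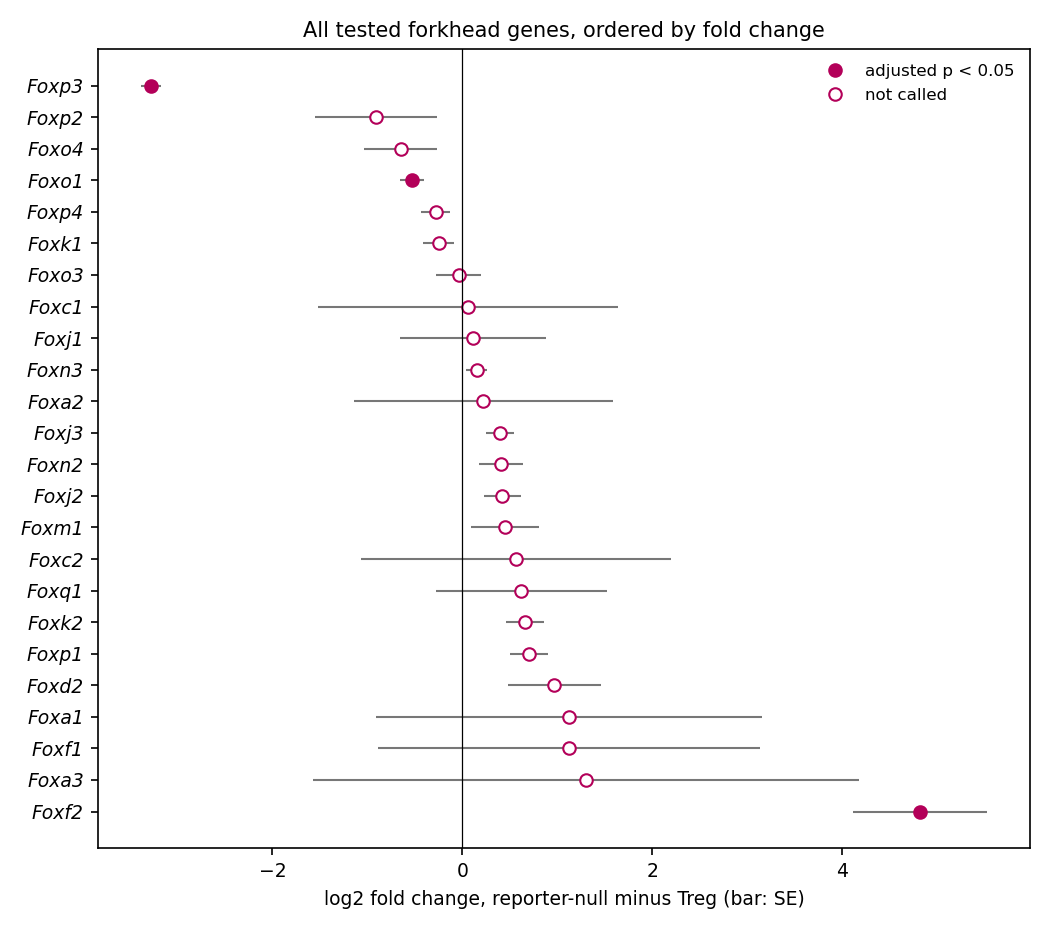
Log2 fold change (reporter-null minus Treg, x axis) with SE bars for all 24 tested forkhead genes, ordered from the lowest. Foxp3 at -3.28 and Foxf2 at 4.82 stand apart, Foxo1 is the remaining called gene, and the widest bars belong to genes of a few CPM such as Foxa3.

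Proteins known to bind FOXP3 were described in the same way. Of 33 tested, 6 were higher and 2 lower, or 24.2% called beside 8.79% of all tested genes, with a median log2 fold change of 0.18. Both lower genes encode repressors of transcription. Ikzf4, which encodes Eos, fell from 89.3 and 103 CPM to 22.2, 20.4 and 22.4 CPM (-2.15, SE 0.122, adjusted p = 0.000407), and Hdac9 from 23.8 and 21.8 CPM to 2.92, 3.12 and 2.8 CPM (-2.95, SE 0.201, adjusted p = 0.000653). Among the higher genes, Runx1, a Runt factor that binds FOXP3, rose from 234 and 249 CPM to 366, 369 and 405 CPM (0.65, SE 0.113, adjusted p = 0.0166), and Nfatc3 rose from 173 and 197 CPM to 301, 303 and 285 CPM (0.68, SE 0.114, adjusted p = 0.015). The other higher genes were Runx3, Nfatc1, Tcf7 and Ncor1, at log2 fold changes of 0.55 to 0.76. Without Treg replicate 1, Treg replicate 2 or reporter-null replicate 1, 2 genes of the list were called each time, both lower. Without these libraries in turn the adjusted p was 0.165, 0.107 and 0.0779 for Runx1 (range 5.97e-10 to 0.165) and 0.156, 0.0766 and 0.0851 for Nfatc3 (range 1.31e-08 to 0.156), and Nfatc3 was at 0.0624 with Treg replicate 1 and reporter-null replicate 2 both left out.

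Genes that act on the Foxp3 locus or on the protein's stability moved in both directions. Of 40 tested, 5 were higher and 4 lower, or 22.5% called beside 8.79% of all tested genes, with a median log2 fold change of 0.15 beside 0.02. Tgfbr2, the receptor chain through which TGF-beta induces Foxp3, rose from 187 CPM in both Treg libraries to 462, 495 and 398 CPM (1.27, SE 0.134, adjusted p = 0.00268). Il2ra, whose IL-2 signal sustains Foxp3 through STAT5, fell from 422 and 444 CPM to 215, 231 and 260.4 CPM (-0.88, SE 0.122, adjusted p = 0.00711), and Stat5a fell by 0.55 (adjusted p = 0.0288). Satb1, a chromatin organiser that prepares the Foxp3 locus in the thymus, fell from 877 and 652 CPM to 212, 319.9 and 227 CPM (-1.60, SE 0.217, adjusted p = 0.00741). The remaining called genes were Runx1, Kmt2d, Usp7 and Pim2, higher, and Bach2, lower. Leaving out Treg replicate 1 gave a count of 2, and leaving out Treg replicate 2 or null replicate 1 gave 3. Il2ra was not called without Treg replicate 1 (0.0685) or Treg replicate 2 (0.0784, range 2.03e-11 to 0.0785), nor Satb1 without Treg replicate 1 (0.0741, range 7.63e-12 to 0.163).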

How the data were processed

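RNA-seq libraries of 2 Treg and 3 reporter-null samples were analysed, grouped and numbered by their titles. SMART-Seq v4 amplification preceded paired-end sequencing on an Illumina HiSeq, per the labels' protocols. The authors deposited whole-number counts per gene symbol with no normalisation, per the file headers. The submitters' processing notes name DESeq. For the aligner, build, annotation and strand setting: not given in the sources used here. Reads carry no molecular identifiers.

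Of 24421 rows, 4 named NA were left out (0.0034% to 0.00492% of the counts). No replicate pair agreed within sampling noise (chi-square of 23.1 to 98.1 per degree of freedom). In R 4.3.3, genes passed filterByExpr (minimum count 10, minimum total 15), and groups were compared by edgeR 4.0.16 (TMM, robust quasi-likelihood F test, two-sided, Benjamini-Hochberg, threshold 0.05). The SE is the size of the log2 fold change over the root of F. The steps were run on counts simulated with planted fold changes and the spread fitted to these libraries. The outcome is not reported here, and no effect shared between libraries was simulated. Named were the 10 genes, Thy1, up to 4 genes of smallest p per list and the closest profiles (log2 CPM, prior count 2). A few of these are left unreported. Further list members were named after their values were seen. The genes and lists were chosen with earlier results of these data known, and lists share genes, such as Tcf7. Tried as alternatives were DESeq2 1.42.0, limma-voom (limma 3.58.1), factors by RLE or upper quartile, no filter, a CPM of 1 in 2 libraries, a replicate block by title number, each library left out and, chosen after seeing the data, 2 left out together and a block by description number.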

Additional observations from a re-analysis of the deposited data

How the results depend on the processing

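Over 14 alternatives, 125 of 140 values of the 10 genes kept their direction and their side of the threshold. Foxp3 kept its call in all 14 (-3.30 to -3.24). Of the others, Foxo3, which was not called, ran from -0.28 to 0.25 with a library left out and changed sign when that was Treg replicate 2 (0.25) or reporter-null replicate 2 (0.11). Of 518 values of 37 other named genes, 443 kept their side, 70 lost a call, 5 gained one and 0 changed sign.

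The count of genes called was 2323 with DESeq2, 24 with the replicate block by title number, 2152 with Treg replicate 1 and reporter-null replicate 2 both left out, and 341 to 2035 with a single library left out. Of the 10 genes, 1 to 4 were called with a library left out. Whenever a Treg library was left out, that group held 1 library, assumed to vary like the others. With a library left out, called genes ran from 0 to 1 for the CCC, retriever and WASH list, 4 to 17 for FOXO targets, 1 to 5 for FOXO regulators, 2 to 11 for Foxp3 partners, 2 to 12 for Foxp3 locus regulators, and 0 to 2 for genes beside Foxp3. DESeq2 called 1 gene of the CCC list, 9 FOXO regulators, 15 Foxp3 locus regulators and 2 further forkhead genes. Without both libraries the counts were 1 for the CCC list, 2 for FOXO regulators, 5 for Foxp3 partners and 2 for genes beside Foxp3.

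With the replicate number of the titles as a block, 1 of the 10 genes was called (Foxp3, adjusted p = 0.0419), as were 1 FOXO target, 1 FOXO regulator, 0 Foxp3 partners, 0 Foxp3 locus regulators, 0 further forkhead genes and 0 genes beside Foxp3. Ccdc22 was then at -1.10 (adjusted p = 0.0785) and Foxo1 at -0.47 (adjusted p = 0.202). The descriptions number the libraries differently and pair Treg replicate 1 with null replicate 2 and Treg replicate 2 with null replicate 3. Deviations from the group means correlated at -0.511 and -0.602 in the pairs by title. In the pairs by description they correlated at 0.602 and 0.481. With 2 Treg libraries their deviations mirror each other, so -0.602 and 0.602 are 1 value with its sign turned. Treg replicate 1 and null replicate 2 are also the 2 libraries with the most epithelial transcripts. These correlations therefore cannot decide between the pairings. A replicate block by description number, added after seeing the data, called 1399 genes, 3 of the 10 (Foxp3 and Ccdc22 lower, Foxp1 higher) and 2 FOXO regulators. Ccdc22 was then at -1.30 (adjusted p = 0.000106), Foxp1 at 0.71 (adjusted p = 0.0253) and Foxo1 at -0.51 (adjusted p = 0.117). Since the labels do not say what either number marks, neither pairing is taken as the design. Calls lost under the title block are not read as weaker effects.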
